A study of Mus musculus with 24 samples.

Results

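The 10 mouse genes described here are the transcription factors of the CREB family and its coactivators (Creb1, Crem, Atf1, Crtc2 and Crtc3) and a set of transcription factor genes that cAMP signals can switch on (Nr4a1, Nr4a2, Nr4a3, Fos and Fosb). They were taken by gene symbol from FPKM tables of 24 RNA-seq libraries, which list 18063 genes for the M1 libraries and 17786 for the M2 libraries, and all 10 are listed in both. Bone marrow-derived macrophages (BMDMs) of wild-type mice and of DRD5 KO mice, which lack the dopamine receptor DRD5, both C57BL/6 and 10 weeks old, were polarized for 12 h without or with dopamine (DA). The submitters' growth notes speak of BMDMs isolated from colons, whereas the study's methods take bone marrow from tibias and femurs. The cells were treated as BMDMs here. M1 cells received 100 ng/ml LPS and 50 ng/ml IFN-γ, and M2 cells received 10 ng/ml IL-4 and 10 ng/ml IL-13. The dose of DA given for such cultures in the study's legends is 20 µM. These 3 factors make 8 groups of 3 libraries: M1 WT, M1 WT with DA, M1 KO, M1 KO with DA, and the same 4 for M2. Sources do not say whether the 3 libraries of a group came from separate mice, so p-values measure the spread between these libraries, which may be technical.

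DRD5 is a D1-like receptor that couples to the stimulatory G protein and raises cAMP. Protein kinase A, which cAMP activates, phosphorylates CREB at a serine in its kinase-inducible domain, and the CRTC coactivators, freed from the salt-inducible kinases, enter the nucleus and join CREB at cAMP response elements (CREs). Immediate early genes such as the NR4A receptors and the FOS family carry such elements and are known for transient induction, and in macrophages CREB is known for anti-inflammatory and M2-associated targets. Much of CREB control acts through phosphorylation and location, which mRNA levels do not report.

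The knockout could not be checked on its own transcript: in M2, Drd5 was listed at 0 FPKM in all 6 KO libraries and in 4 of 6 WT libraries, with 0.06 in M2 WT replicate 2 and 0.03 in M2 WT with DA replicate 2, and no M1 value was analysed. Macrophage and polarization markers matched the labels. Lyz2 was the most abundant of the 7 macrophage markers at 4753 to 7166 FPKM in the 8 group means, Nos2 was at 1708 to 1963 FPKM in the M1 groups and at most 0.327 FPKM in the M2 groups, and Mrc1 was at 11.1 to 18.8 FPKM in M1 and 248 to 537 FPKM in M2.

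Markers of other cells differed between the groups. All 7 neutrophil markers were listed in M1, with S100a8 the most abundant, and their summed FPKM was 37.33, 46.10 and 47.17 in M1 WT, 70.74, 58.65 and 57.69 with DA, but 14.56, 18.18 and 15.71 in M1 KO and 18.67, 17.32 and 19.93 in KO with DA. S100a9 averaged 13.6 ± 2.89 FPKM (SD, n = 3) in M1 WT against 0.540 ± 0.234 in M1 KO, while Elane was at 0 in all 12 M1 libraries and Mpo averaged at most 0.0467 FPKM in any group. Only 5 of the 7 were analysed in M2, where their sum stayed at 0.23 to 1.51 FPKM. All 5 fibroblast markers were listed, with Dcn the most abundant in M2, and their sum was 122.92, 119.95 and 121.78 FPKM in M2 WT, 95.72, 94.21 and 95.39 with DA, 74.79, 74.85 and 76.78 in M2 KO and 81.27, 81.51 and 82.08 in KO with DA, against 3.80 to 4.68 in M1. T cell, B cell, dendritic cell, mast cell or basophil and erythroid lists each summed to at most 3.86 FPKM in any library. With DA in M1 WT, however, 1 of the 2 tested T cell markers and the 1 tested dendritic cell marker were lower. There, 14.3% of all genes passed the threshold given below. With DA present, that dendritic cell marker, Xcr1, was also higher in M1 KO (1.64 FPKM) than in M1 WT (0.93 FPKM), beside 18.5% of all genes. In M2 the receptor gene Kit, the 1 tested mast cell or basophil marker, was lower with DA in WT (2.72 ± 0.110 to 1.93 ± 0.0361 FPKM), beside 46.3% of all genes. Its log2 change of FPKM + 1 was -0.34 in WT and -0.25 in KO, where it did not pass. The difference between these 2 effects, -0.095, did not pass either. With DA present, Kit was higher in KO than in WT (2.77 ± 0.0862 in KO), beside 49.7% of all genes. In bulk RNA, fewer cells of a type and less RNA per cell cannot be told apart, and the part these other cells had in the results below was not tested.

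**Figure D1:**
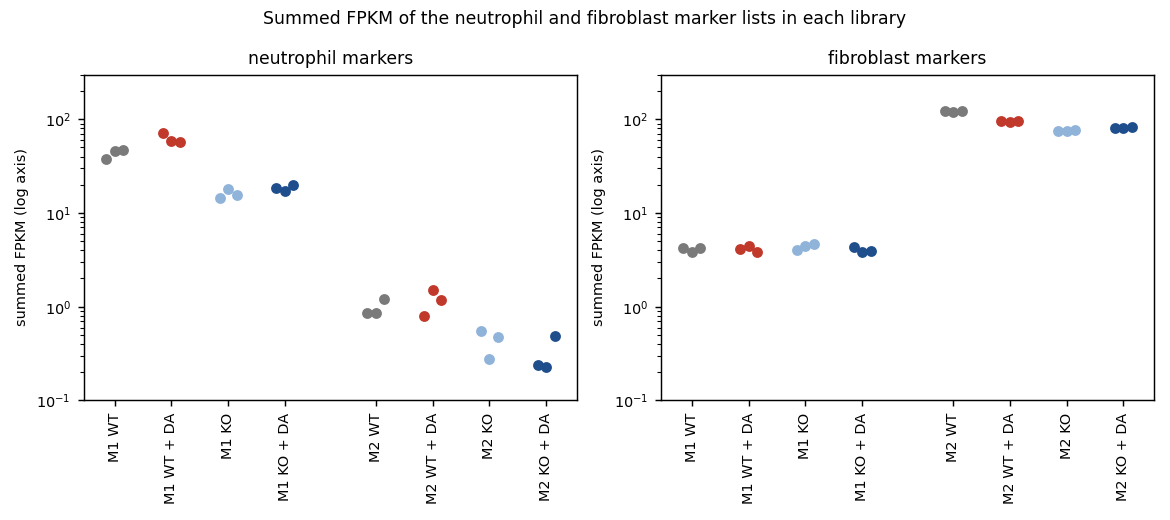
Summed FPKM (log axis) of the neutrophil and the fibroblast marker list in each of the 24 libraries, by group. Neutrophil markers sit at 37.33 to 70.74 in the M1 WT libraries and at 14.56 to 19.93 in the M1 KO libraries, and fibroblast markers are highest in untreated M2 WT at 119.95 to 122.92.

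FPKM is scaled for transcript length, so levels of different genes can be set side by side. In M1, Crtc2 had the highest median over the 12 libraries at 28.5 FPKM, followed by Fos at 24.2, Atf1 at 19.0 and Crem at 17.7, with Crtc3 at 6.97 and Creb1 at 5.62. In M2, Crtc2 (26.8 FPKM) and Atf1 (25.6 FPKM) led, and Fos at 11.3 and Crem at 10.4 were lower than in M1. The NR4A genes were far lower, with M1 medians of 3.06 for Nr4a3, 1.47 for Nr4a2 and 1.15 for Nr4a1. Fosb was below 1 FPKM in all 24 libraries, and Nr4a3 in all 12 M2 libraries. Nr4a2 was below 1 FPKM in every M2 group mean. M1 and M2 libraries come in separate tables that list different genes, and levels are set across them only as a description.

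**Figure D2:**
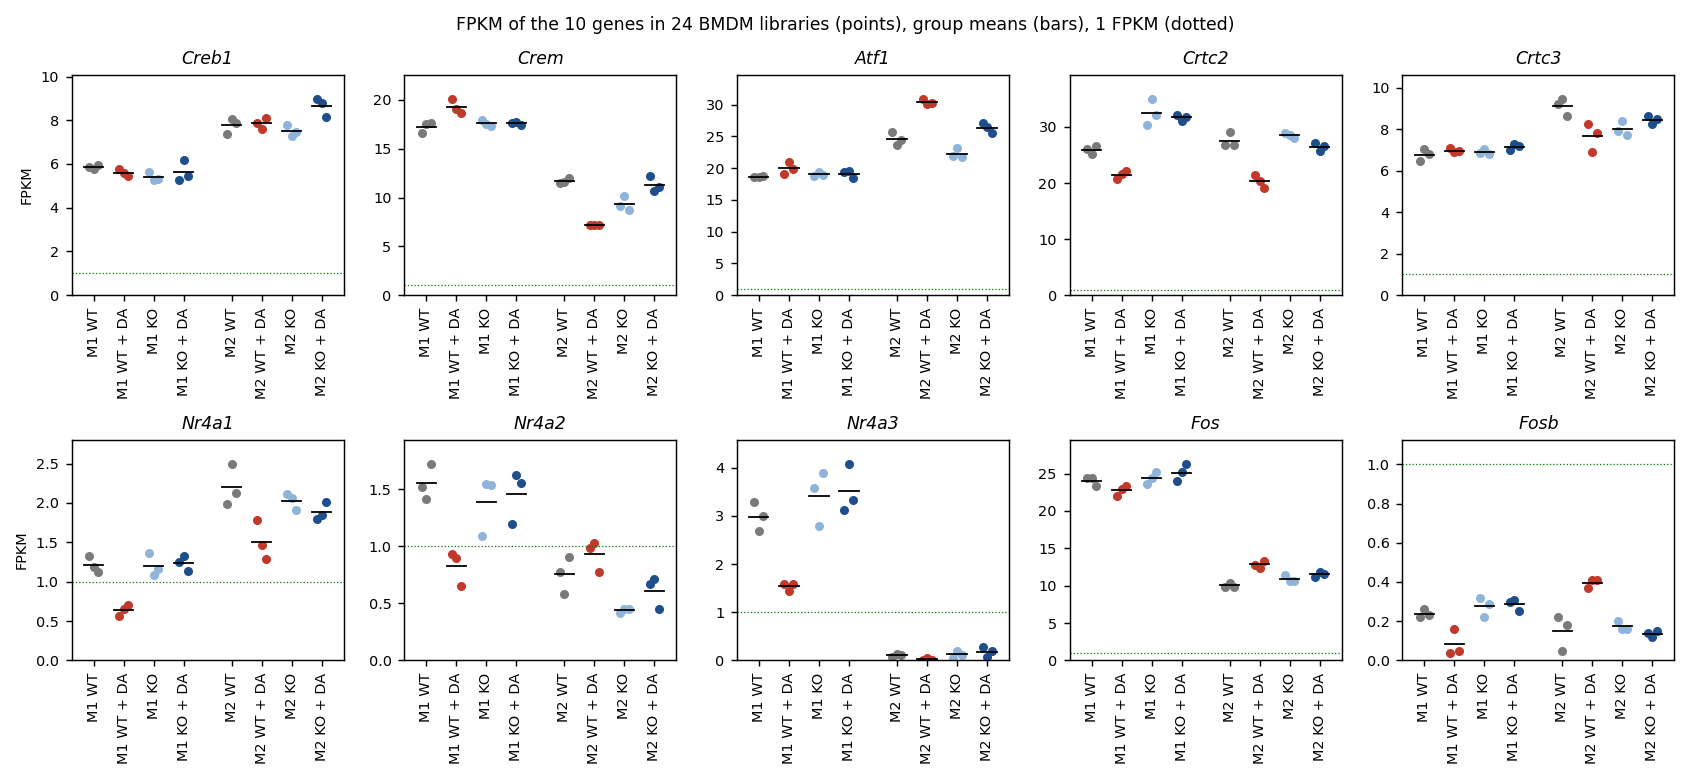
FPKM of each of the 10 genes (vertical axes) in the 8 groups, with 1 point per library, a bar at the mean of 3 libraries and a dotted line at 1 FPKM. In M1, the DA-treated WT libraries sit lowest for Nr4a1, Nr4a2, Nr4a3 and Crtc2, and in M2 they sit lowest for Crem and Crtc2 and highest for Atf1 and Fos.

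Each comparison was fitted with limma on log2(FPKM + 1) over all genes with at least 1 FPKM in at least 3 libraries, and a gene passed where its adjusted p was below 0.001 and it differed by 1.2-fold or more on that scale, which understates changes of low genes; fold values below are of FPKM + 1. Of the 10 genes, 9 were tested in M1 (Fosb fell below the filter) and 7 in M2 (Nr4a2, Nr4a3 and Fosb fell below it). With DA in M1 WT, the 3 NR4A genes fell and none of the 9 rose, beside 14.3% of all tested genes past the threshold. With DA in M1 KO, limma called 0 of the 9 and 0.00% of all genes. At an unadjusted p under 0.05 there were 0 of the 9 and 569 of 10040 genes. With DA in M2 WT, 4 of 7 passed, Crem and Crtc2 lower and Atf1 and Fos higher, a share near that of the whole table, 46.3%. With DA in M2 KO, limma called 0 of 7 against 4.02% of all genes, and 4 of the 7 had an unadjusted p under 0.05, as did 4570 of 10735 genes.

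Without DA, Crtc2 alone of the 9 tested in M1 differed between genotypes and was higher in KO, where 0.936% of all genes passed, and 0 of 7 passed in M2, where 5.51% did and 4 of the 7 had an unadjusted p under 0.05, as did 4021 of 10735 genes. With DA present, 3 of 9 were higher in M1 KO than in M1 WT (Crtc2, Nr4a1 and Nr4a3), beside 18.5% of all genes, and 2 of 7 were higher in M2 KO (Crem and Crtc2), beside 49.7%. The difference between the DA effects of the 2 genotypes passed for 0 of 9 genes in M1, where 8.38% of all genes passed and 5 of the 9 had an unadjusted p under 0.05 (4081 of 10040 over all genes), and for 2 of 7 in M2 (Crem and Crtc2), where 43.2% passed. The difference between the DA effects in M2 WT and M1 WT passed for Crem and Fos among the 7 genes that meet the filter under both stimuli, beside 45.9% of all genes. The comparisons share libraries, the DA-treated WT group among them, and are not independent of each other.

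**Figure D3:**
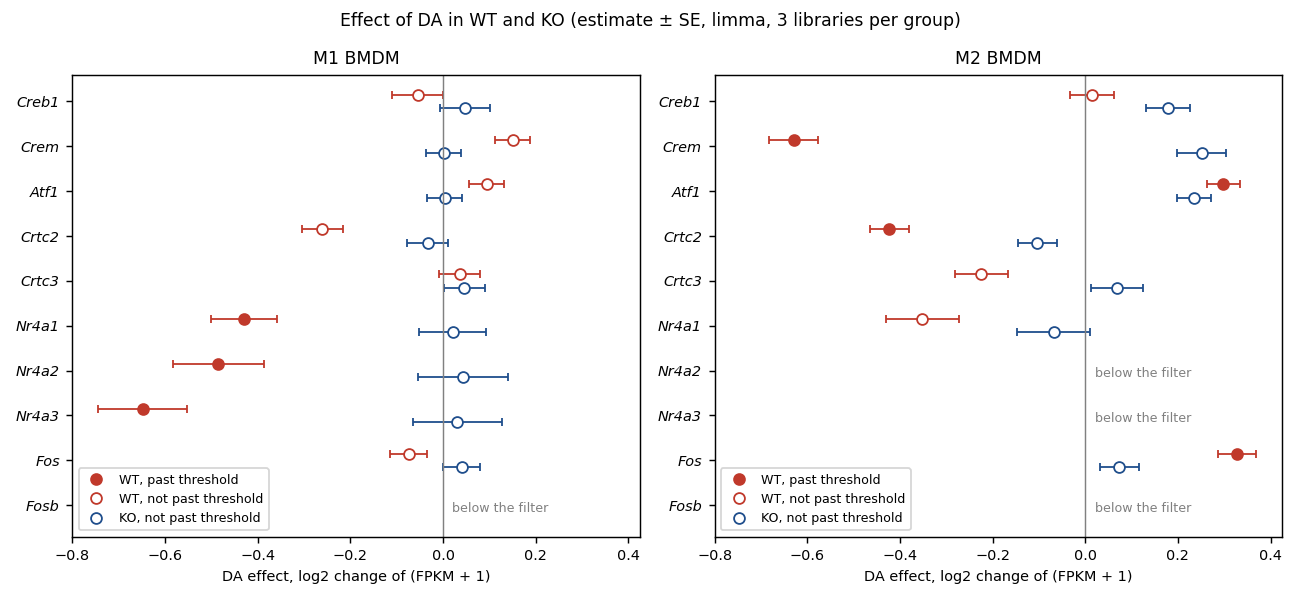
Effect of DA on each gene in WT (red) and KO (blue), as the log2 change of (FPKM + 1) with its SE, in M1 and M2; filled points passed the threshold. In M1 the NR4A genes sit at -0.43 to -0.65 in WT and between 0.02 and 0.04 in KO, and in M2 Crem sits at -0.63 in WT and 0.25 in KO.

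Creb1, the founding CREB factor (Entrez Gene 12912; chr1:64532794-64604548 in RefSeq, GRCm38.p6), did not pass in any of the 11 comparisons. Its libraries ranged from 5.26 to 6.18 FPKM in M1, the range of KO with DA alone, which spanned the other 3 groups. In M2, Creb1 was at 7.37, 8.06 and 7.88 FPKM in WT, 7.88, 7.59 and 8.09 with DA, 7.80, 7.28 and 7.45 in KO and 8.97, 8.79 and 8.14 in KO with DA. The KO libraries with DA were the highest, above those without, at a log2 difference of 0.18 ± 0.05 (SE) whose adjusted p of 0.0115 missed the threshold. In WT the M2 log2 change with DA was 0.01, with a 95% interval of -0.09 to 0.12, and turned to -0.02 and -0.03 after median-of-ratios scaling and quantile normalization.

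Crem encodes activators and, from an internal promoter, the short repressor ICER, a classic cAMP-induced product, and gene-level FPKM do not separate them. In M2, Crem was at 11.47, 11.60 and 11.98 FPKM in WT and at 7.15, 7.22 and 7.22 with DA, so that DA-treated WT libraries were lowest in 3 of 3. In KO, Crem was at 9.15, 10.13 and 8.74 FPKM without DA and at 12.18, 10.67 and 11.06 with DA. The order in M2 was thus WT, KO with DA, KO and WT with DA, and of the neighbours only WT and KO with DA overlapped. The fall in WT was -0.63 ± 0.05 on the log2 scale (SE, adjusted p = 8.63e-08), a 1.55-fold change, whereas the KO change was 0.25 ± 0.05 with an adjusted p of 0.00312, short of the threshold. The difference of these 2 changes was -0.88 ± 0.08 (adjusted p = 1.51e-07). With DA present, Crem was 1.499-fold higher in KO than in WT (adjusted p = 1.76e-07), while without DA the KO libraries were the lower ones, at a log2 difference of -0.30 and an adjusted p of 0.00102 that just missed. That difference passed without M2 KO replicate 2 or M2 KO with DA replicate 1 (adjusted p 0.000400 and 0.000583), with adjusted p of 0.000400 to 0.00646 over all single libraries left out.

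In M1, Crem was at 16.62, 17.51 and 17.67 FPKM in WT and 20.09, 19.06 and 18.68 with DA, against 17.99, 17.56 and 17.28 in KO and 17.66, 17.78 and 17.44 in KO with DA. The DA-treated WT libraries were the highest and did not overlap the other groups, but the change was 1.11-fold (log2 change 0.15 ± 0.04, adjusted p = 0.00450) and did not pass. All 12 M1 libraries lay above all 12 M2 libraries. The DA effect in WT was lower in M2 than in M1 by a log2 difference of -0.78 ± 0.07 (adjusted p = 4.34e-10).

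Atf1, the closest relative of Creb1 and Crem (Entrez Gene 11908; chr15:100227859-100261248), was higher with DA in both genotypes of M2. Its levels were 25.64, 23.70 and 24.40 FPKM in WT, 30.86, 30.15 and 30.30 with DA, 21.95, 23.13 and 21.71 in KO and 27.02, 26.49 and 25.59 in KO with DA. The order was WT with DA, KO with DA, WT and KO, and of these neighbours only KO with DA and WT overlapped. The rise in WT was 0.30 ± 0.04 (SE, log2; adjusted p = 3.47e-06), or 1.23-fold, and that in KO was 1.18-fold with an adjusted p of 0.000296, under the fold limit. Their difference was 0.06 with a 95% interval of -0.05 to 0.17 and an adjusted p of 0.280, so the genotypes were not shown to differ in this effect. After median-of-ratios scaling or quantile normalization the WT change stayed positive at 0.26 and 0.23 but was under 1.2-fold. In M1, Atf1 ranged from 18.36 to 21.00 FPKM and passed in no comparison.

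Crtc2 and Crtc3 are CREB-regulated transcription coactivators. Crtc2 (Entrez Gene 74343; chr3:90253858-90264125) had lower values in DA-treated WT cells under either stimulus. In M2 it was at 26.81, 29.11 and 26.72 FPKM in WT and fell to 21.35, 20.40 and 19.13 with DA, while KO was at 28.96, 28.57 and 28.08 without and 27.10, 25.75 and 26.63 with DA. DA-treated WT was the lowest group with no overlap, untreated KO lay within the range of untreated WT, and KO with DA overlapped the latter too. The WT change was -0.42 ± 0.04 (SE, log2; adjusted p = 4.95e-07) and the KO change -0.10 ± 0.04 (adjusted p = 0.0767), and they differed by -0.32 ± 0.06 (adjusted p = 0.000295). That last call depended on 2 libraries, since without replicate 3 of M2 KO or replicate 1 of M2 KO with DA its adjusted p was 0.00107 and 0.00108, against 6.21e-05 to 0.000975 in its other alternatives at 1.2-fold.

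In M1, Crtc2 was at 25.99, 25.24 and 26.58 FPKM in WT, 20.79, 21.58 and 22.06 with DA, 30.38, 34.98 and 32.12 in KO and 32.15, 31.14 and 31.79 in KO with DA. All 6 KO libraries were above all 6 WT libraries, KO with DA lay within the range of KO, and the DA-treated WT libraries were lowest. The DA change in WT had an adjusted p of 0.000243 but was 1.199-fold, just under the limit of 1.2, and it passed with a pseudocount of 0.1, at -0.27, and without M1 WT replicate 2 or M1 WT with DA replicate 3, at -0.28 each. Over the other settings its adjusted p ran from 0.000230 to 0.00397. The genotype difference was 0.31 ± 0.04 without DA (SE, log2; adjusted p = 0.000481) and 0.54 ± 0.04 with DA (adjusted p = 1.74e-07). The call without DA was lost in 4 of 8 other settings at the 1.2-fold limit and when any of 5 libraries was left out (each of the M1 WT replicates, and replicates 2 and 3 of M1 KO), with adjusted p from 0.000259 to 0.00410 over all of these. The neutrophil markers given above also differed between these genotypes. The 2 DA effects on Crtc2 in M1 differed by -0.23 ± 0.06 with an adjusted p of 0.0131, short of the threshold.

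Crtc3 (Entrez Gene 70461) passed in none of the 11 comparisons. It ranged from 6.45 to 7.30 FPKM in M1. In M2 it was at 9.22, 9.46 and 8.65 FPKM in WT, 8.28, 6.90 and 7.82 with DA, 7.92, 8.42 and 7.73 in KO and 8.62, 8.27 and 8.48 in KO with DA. DA-treated WT libraries were below untreated ones without overlap, at a log2 difference of -0.22 ± 0.06 and an adjusted p of 0.00260, and overlapped the KO libraries. The difference passed with quantile normalization (adjusted p = 0.000758) and without M2 WT with DA replicate 1 (0.000815), with adjusted p up to 0.0139 elsewhere, and without that library the difference between stimuli passed too (0.000431). After median-of-ratios scaling and quantile normalization the DA effect on Crtc3 in WT was lower in M2 than in M1 (adjusted p 0.000264 and 7.08e-05), and after the latter that on Crtc2 was too (2.15e-05), while the unscaled differences, -0.26 for Crtc3 and -0.16 for Crtc2, did not pass (0.00238 and 0.0274).

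The NR4A genes encode orphan nuclear receptors (NUR77, NURR1 and NOR1) that act as immediate early transcription factors without a known hormone ligand. Since the 3 moved together in M1, their RefSeq promoters are shown, from 250 bases before to 50 after an annotated start site, 5′ to 3′ on the strand of the gene, with that of Fos for comparison; capitals mark CRE half-sites, TGACG or its reverse complement. The windows, in GRCm38.p6, are chr15:101266596-101266895 on the plus strand for Nr4a1, chr2:57123954-57124253 on the minus strand for Nr4a2, chr4:48045055-48045354 on the plus strand for Nr4a3 and chr12:85473640-85473939 on the plus strand for Fos.
Nr4a1: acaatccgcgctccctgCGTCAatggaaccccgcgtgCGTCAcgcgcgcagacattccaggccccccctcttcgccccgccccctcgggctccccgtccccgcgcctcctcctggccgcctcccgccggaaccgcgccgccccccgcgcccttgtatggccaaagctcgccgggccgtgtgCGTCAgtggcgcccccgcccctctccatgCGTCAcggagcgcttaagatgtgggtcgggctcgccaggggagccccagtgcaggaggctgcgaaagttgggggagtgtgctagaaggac
Nr4a2: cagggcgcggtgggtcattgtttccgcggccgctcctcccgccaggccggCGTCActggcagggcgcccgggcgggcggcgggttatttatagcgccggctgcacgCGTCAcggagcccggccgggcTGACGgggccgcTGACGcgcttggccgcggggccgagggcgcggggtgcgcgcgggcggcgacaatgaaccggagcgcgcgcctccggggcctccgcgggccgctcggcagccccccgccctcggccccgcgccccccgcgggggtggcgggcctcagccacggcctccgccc
Nr4a3: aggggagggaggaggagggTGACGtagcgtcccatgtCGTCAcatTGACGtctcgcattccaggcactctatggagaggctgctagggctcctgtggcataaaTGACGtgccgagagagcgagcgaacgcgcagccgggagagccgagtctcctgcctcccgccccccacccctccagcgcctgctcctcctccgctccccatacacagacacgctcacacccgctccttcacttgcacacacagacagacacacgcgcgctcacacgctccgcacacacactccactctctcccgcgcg
Fos: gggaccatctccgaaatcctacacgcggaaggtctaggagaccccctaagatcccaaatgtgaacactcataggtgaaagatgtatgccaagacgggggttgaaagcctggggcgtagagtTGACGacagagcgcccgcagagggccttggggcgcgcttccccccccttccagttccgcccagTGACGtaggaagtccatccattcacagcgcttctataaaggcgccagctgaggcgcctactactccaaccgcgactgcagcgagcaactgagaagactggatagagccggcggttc

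Each of the 3 NR4A promoters held 4 half-sites. Fos held 2, Atf1 and Fosb 1 each, and Creb1 and Crtc3 0. These are 8 of the 10 genes. Windows on chromosome 18, where Crem lies, were left out of these counts, and no window is given for Crtc2. Among all 32851 RefSeq promoters of this length, 20.8% held at least 1 half-site on either strand and 0.231% (76) held at least 4, a cutoff chosen after these matches were seen. The full palindromic CRE, TGACGTCA, which contains the half-site on both strands, was in none of the 8 windows and in 1.79% of all promoters. The AP-1 site TGANTCA (7.81% of all promoters) and the NR4A site AAAGGTCA (1.51%) were in none of the 8 either. A match is a string of letters in this window and does not show binding.

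**Figure D4:**
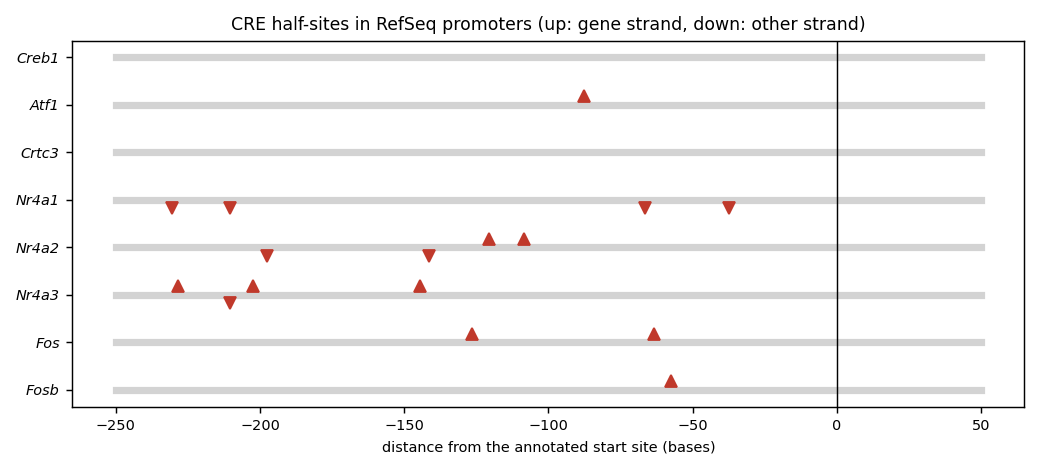
Positions of CRE half-sites in the 8 RefSeq promoters, as the distance in bases from the annotated start site (vertical line), with triangles pointing up for the strand of the gene and down for the other. Nr4a1, Nr4a2 and Nr4a3 have 4 triangles each, Fos 2, and Creb1 and Crtc3 have 0.

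Nr4a3 (Entrez Gene 18124), the most abundant of the NR4A genes in M1, was at 3.29, 2.68 and 2.99 FPKM in M1 WT and at 1.59, 1.44 and 1.59 with DA. In M1 KO it was at 3.58, 2.80 and 3.89 FPKM, and at 3.13, 4.07 and 3.33 with DA. The DA-treated WT libraries were lowest in 3 of 3, and the other 3 groups overlapped. The fall of -0.65 ± 0.10 on the log2 scale (SE, adjusted p = 7.59e-05) was the largest DA change in M1 WT among the 9 tested genes and held in each of the alternatives run at the same 1.2-fold limit. In KO the change was 0.03, with a 95% interval of -0.18 to 0.24.

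Nr4a1 (Entrez Gene 15370) was at 1.32, 1.19 and 1.12 FPKM in M1 WT and 0.57, 0.65 and 0.70 with DA, against 1.36, 1.09 and 1.16 in M1 KO and 1.25, 1.32 and 1.13 in KO with DA. The pattern matched that of Nr4a3, with DA-treated WT below every other library. The fall was -0.43 ± 0.07 (SE, log2; adjusted p = 0.000203), and the KO change was 0.02. With a pseudocount of 0.1 in place of 1 the WT change was -0.83. The call was lost with quantile normalization (adjusted p = 0.00228) and without M1 WT replicate 1, M1 WT with DA replicate 1 or M1 WT with DA replicate 2 (adjusted p 0.00166, 0.00150 and 0.00101), and the adjusted p ran from 7.80e-05 to 0.00228 over the alternatives.

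Nr4a2 (Entrez Gene 18227) was at 1.52, 1.42 and 1.72 FPKM in M1 WT, 0.93, 0.90 and 0.65 with DA, 1.09, 1.55 and 1.54 in M1 KO and 1.2, 1.63 and 1.56 in KO with DA. Here too the DA-treated WT libraries lay below the rest and the other groups overlapped. The fall of -0.49 ± 0.10 (SE, log2) passed narrowly at an adjusted p of 0.000977, and was -0.85 with a pseudocount of 0.1. It was lost in 6 of 8 other settings at the 1.2-fold limit, the replicate block among them (adjusted p = 0.00150), and without each library in turn except M1 KO replicate 1 and M1 KO with DA replicate 1. The adjusted p ran from 0.000482 to 0.00651 over these, with the same sign.

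The DA effects on the NR4A genes in M1 differed between WT and KO by -0.68 ± 0.14 for Nr4a3, -0.45 ± 0.10 for Nr4a1 and -0.53 ± 0.14 for Nr4a2 on the log2 scale. Their adjusted p of 0.00176, 0.00386 and 0.00994 missed the threshold of 0.001, so a difference between the genotypes in this effect was not shown at that limit. With a pseudocount of 0.1 the differences were -0.95, -0.86 and -0.92 and missed it too (adjusted p 0.001004, 0.00269 and 0.00937). With DA present, FPKM + 1 was 1.77-fold higher in KO than in WT for Nr4a3 and 1.36-fold for Nr4a1 (adjusted p = 6.06e-06 and 0.000121), at mean levels of 3.51 beside 1.54 FPKM and 1.23 beside 0.640 FPKM. With a pseudocount of 0.1 the log2 difference of Nr4a1 was 0.85 in place of 0.45. Nr4a2, at 1.46 beside 0.827 FPKM and 1.35-fold on the FPKM + 1 scale, had an adjusted p of 0.00202, which ran from 0.000981, without M1 KO replicate 1, to 0.0126 over the alternatives.

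In M2, only Nr4a1 of the NR4A genes reached 1 FPKM in a group mean. It was at 1.99, 2.49 and 2.12 FPKM in WT, 1.78, 1.46 and 1.29 with DA, 2.11, 2.06 and 1.91 in KO and 1.80, 1.85 and 2.01 in KO with DA. DA-treated WT libraries were again below all others, at a log2 difference of -0.35 ± 0.08 whose adjusted p of 0.00104 just missed. It passed with median-of-ratios scaling (adjusted p = 0.000644), without the intensity trend (0.000872) and without M2 WT with DA replicate 1 (0.000303), and over the alternatives for Nr4a1 the adjusted p ran from 0.000303 to 0.00711. Nr4a2 was at 0.78, 0.58 and 0.91 FPKM in M2 WT and 0.99, 1.03 and 0.78 with DA, and at 0.42 to 0.71 in the KO libraries. Nr4a3 was at 0.01 to 0.28 FPKM over the 12 M2 libraries, below 1 FPKM throughout.

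Nr4a2 and Nr4a3 are below the filter in M2 and enter the fit of all 24 libraries through M1 alone, so their differences between stimuli are not counted here. Nr4a3 averaged 0.113 FPKM in M2 WT and 0.0233 with DA and had almost no room to fall on the log2(FPKM + 1) scale, and with a pseudocount of 0.1 its DA effects in M2 and M1 differed by 0.11 with an adjusted p of 0.792. For Nr4a1 the 2 stimuli gave DA effects that differed by 0.08, with a 95% interval of -0.13 to 0.29, and by 0.31 with a pseudocount of 0.1 (adjusted p = 0.108).

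Fos and Fosb encode AP-1 subunits that pair with JUN proteins. Fos (Entrez Gene 14281; chr12:85473890-85477274) was at 9.87, 10.42 and 9.81 FPKM in M2 WT and 12.83, 12.42 and 13.29 with DA, and at 11.45, 10.65 and 10.66 in M2 KO and 11.19, 11.88 and 11.54 with DA. DA-treated WT was highest and untreated WT lowest, and the KO groups lay between them and overlapped each other. The rise in WT was 0.33 ± 0.04 (SE, log2; adjusted p = 6.74e-06), or 1.26-fold, and the KO change was 0.07 ± 0.04 (adjusted p = 0.204). The difference between the 2 effects was 0.25 ± 0.06 with an adjusted p of 0.00168, short of the threshold.

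In M1, Fos was at 24.36, 24.37 and 23.33 FPKM in WT, 22.06, 22.90 and 23.32 with DA, 23.58, 24.39 and 25.24 in KO and 23.99, 25.17 and 26.23 in KO with DA. Every M1 library was above every M2 library, and no M1 comparison of Fos passed. The DA effect in WT was higher in M2 than in M1 by 0.40 ± 0.06 (SE, log2; adjusted p = 1.58e-06).

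Fosb stayed below 1 FPKM and had no place in the main fits. In M1 it was at 0.22, 0.26 and 0.23 FPKM in WT, 0.04, 0.16 and 0.05 with DA, 0.32, 0.22 and 0.29 in KO and 0.30, 0.31 and 0.25 in KO with DA. In M2 it was at 0.22, 0.05 and 0.18 FPKM in WT, 0.37, 0.41 and 0.41 with DA, 0.20, 0.16 and 0.16 in KO and 0.14, 0.12 and 0.15 in KO with DA. DA-treated WT libraries were thus the lowest for the M1 groups and the highest for the M2 groups, without overlap. In the fit without a filter, Fosb passed with DA in M2 WT (log2 change 0.28 ± 0.05, adjusted p = 0.000267), where 27.2% of all genes did, and was lower in M2 KO than in M2 WT with DA (-0.30 ± 0.05, adjusted p = 0.000172), beside 29.3%. It also passed for the difference between stimuli (0.48 ± 0.06, adjusted p = 3.38e-06), beside 29.6%. The genotypes differed in their M2 effect by 0.33 with an adjusted p of 0.00138, and the M1 WT change of -0.19 had an adjusted p of 0.00665, both short of the threshold.

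Fibroblast markers also differed between the M2 groups: their sum given above was highest in WT, then WT with DA, KO with DA and KO, while for Crem, Crtc2, Atf1 and Fos the DA-treated WT group was the lowest or the highest. Dcn averaged 75.1 ± 1.02 FPKM (SD, n = 3) in M2 WT and 43.3 ± 1.71 with DA, and 42.5 ± 0.738 in M2 KO and 49.4 ± 0.307 with DA, while Col1a1 averaged 19.0 ± 0.889 in M2 WT and 23.4 ± 1.23 with DA. With DA in M2 WT, 3 of the 5 fibroblast markers were lower and 1 higher, beside 46.3% of all genes past the threshold. Without DA all 5 were lower in KO than in WT, beside 5.51% of all genes. The macrophage markers differed there too: their sum was 10560.46, 10735.96 and 10635.04 FPKM in M2 WT, 8303.43, 8292.32 and 8328.92 with DA, and 10723.0 to 11172.81 in the 6 M2 KO libraries, so that DA-treated WT was lowest, as for Crem and Crtc2. With DA in M2 WT, Lyz2 fell from 6799 ± 60.4 to 4753 ± 23.3 FPKM, Csf1r from 985 to 697 and Mertk from 9.82 to 4.78. Itgam rose from 132 to 198, and the other 3 of 7 did not pass, beside 46.3% of all genes past the threshold. In M2 KO none of the 7 passed with DA, beside 4.02% of all genes. In M1, with DA in WT, 1 of the 4 tested neutrophil markers passed: S100a8, at 25.0 ± 2.48 FPKM without and 41.7 ± 2.35 with DA. Of the 7 macrophage markers 1 passed there, Csf1r, higher at 409 FPKM with DA than without (307), beside 14.3% of all genes. The macrophage marker sum was 7247.43 to 7360.43 FPKM in M1 WT, 7923.44 to 7993.28 with DA and 7020.58 to 7444.01 in the 6 M1 KO libraries. Their part in the results for the CREB, NR4A and FOS genes was not tested.

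Genes of the same pathway gave a context for these values, and their counts stand beside 14.3% of all genes past the threshold with DA in M1 WT and 46.3% in M2 WT, and 0.00% in M1 KO and 4.02% in M2 KO. Of 25 CREB/ATF relatives, coactivators and CRTC kinases, 24 were tested with DA in M1 WT, of which 1 rose and 3 fell, with a median log2 change of -0.04 beside -0.07 over all tested genes. Atf5, a stress-linked ATF factor, rose from 15.1 ± 1.22 to 19.3 ± 0.564 FPKM (SD, n = 3). Batf, an AP-1 family factor of immune cells, fell from 27.9 ± 0.626 to 15.5 ± 0.823, Atf6b from 37.6 to 30.6, and Sik3, a salt-inducible kinase that holds CRTC proteins in the cytoplasm, from 17.0 to 14.0. In KO none of the 24 passed, and Batf was at 30.0 FPKM without and 30.7 with DA.

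In M2 WT, 23 of the list were tested, of which 4 rose and 8 fell with DA, with a median of -0.21 beside 0.03 over all genes. Atf4, the effector of the integrated stress response, rose from 154 ± 1.78 to 248 ± 4.04 FPKM, Creb5 from 3.84 to 6.09, Creb3l1 from 9.44 to 13.8 and Atf5 from 51.4 to 70.5. The largest falls were those of Crebrf, from 10.1 ± 0.228 to 2.56 ± 0.193, Crebl2, from 4.89 to 2.12, Sik3, from 8.78 to 5.71, and Batf3, from 10.1 to 6.92. In M2 KO 2 of 23 rose and none fell, beside 4.02% of all genes, Creb5 among them, from 3.06 to 4.82, and its 2 DA effects differed by 0.03.

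Among the 11 AP-1 partners, which bind DNA with or beside FOS proteins, 1 rose and 3 fell with DA in M1 WT, with a median of -0.18 beside -0.07. Jun rose from 47.5 ± 1.69 to 57.3 ± 1.15 FPKM, while Junb fell from 294 ± 15.1 to 215 ± 13.5, Jund from 66.7 to 52.8 and Fosl2 from 17.5 to 14.1. In M2 WT, 5 rose and 2 fell, beside 46.3% of all genes past the threshold, with a median of 0.22 beside 0.03. Maf rose from 21.9 ± 0.751 to 53.2 ± 2.26 FPKM, Fosl1 from 0.773 to 2.14, Jdp2 from 8.40 to 13.3 and Maff from 2.36 to 3.72, and Jund fell from 63.7 to 42.5 and Mafk from 19.0 to 13.8. Fosl1 also averaged below 1 FPKM in KO (0.55) and in KO with DA (0.707). It met the filter mainly through the DA-treated WT libraries, and nothing further is drawn from its call. In KO, none of the 11 passed under either stimulus, where 0.00% of all genes did in M1 and 4.02% in M2.

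Of 23 other immediate early genes, 19 were tested in M1, where 6 rose and 8 fell in WT with DA and none passed in KO (median -0.13 in WT beside -0.07 over all genes). Among the rises were the phosphatase gene Dusp4, from 7.25 ± 0.417 to 14.3 ± 0.231 FPKM, and the Krüppel-like factors Klf4, from 10.2 to 17.7, Klf2, from 10.5 to 18.02, and Klf10, from 10.4 to 16.6. Arc fell from 2.50 ± 0.131 to 0.483 ± 0.0306 FPKM, Dusp2 from 5.90 to 2.41, Nab2 from 23.6 to 16.5 and Btg2 from 9.76 to 6.67. All 8 of these, named for their large WT changes, also differed between the genotypes in their DA effect (adjusted p from 2.76e-07 for Arc to 7.03e-05 for Btg2). Over the whole lists, that difference passed in M1 for 12 of the 19 immediate early genes, 2 of the 11 AP-1 partners (Junb and Fosl2), 2 of the 24 CREB/ATF relatives (Batf and Atf6b) and 8 of the 20 CRE-bearing targets described next, beside 8.38% of all genes. It was missed by Atf5, Sik3, Jun and Jund (adjusted p 0.00390, 0.00253, 0.00158 and 0.00198).

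In M2, 21 of these genes were tested, and 6 rose and 6 fell in WT with DA, with none of 21 passing in KO, beside 4.02% of all genes (median 0.04 in WT beside 0.03 over all genes). Myc rose from 22.7 ± 0.891 to 65.4 ± 1.72 FPKM, Klf10 from 12.2 to 33.6, Dusp5 from 2.65 to 5.08 and Klf4 from 12.5 to 18.01. Btg2 fell from 14.7 ± 0.609 to 2.39 ± 0.173, Ier5 from 33.7 to 20.5, Csrnp1 from 10.4 to 6.24 and Ier3 from 46.2 to 35.3.

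The list of 26 other CRE-bearing target genes, 20 of them tested in M1, had 3 that rose and 7 that fell in M1 WT with DA and none that passed in KO (median -0.17 in WT beside -0.07 over all genes). Among the rises, the G-protein regulator Rgs2 went from 6.94 ± 0.358 to 12.5 ± 0.935 FPKM and the cyclin gene Ccnd1 from 23.2 to 31.3. Odc1, of polyamine synthesis, fell from 20.5 ± 0.611 to 11.8 ± 0.517, the histidine decarboxylase gene Hdc from 4.32 to 2.30, and the cAMP phosphodiesterase genes Pde3b and Pde4b from 1.24 to 0.670 and from 23.3 to 17.6. For Pde3b the difference between the genotypes in this effect had an adjusted p of 0.00297 and did not pass.

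With DA in M2 WT, 19 of the list were tested, and 8 rose and 7 fell, beside 46.3% of all genes past the threshold (median -0.11 beside 0.03 over all genes). Ccnd1 rose from 20.5 ± 0.340 to 234 ± 3.21 FPKM, Odc1 from 19.6 to 48.1 and Il10 from 1.23 to 4. Gadd45a fell from 34.0 ± 1.74 to 14.7 ± 0.628 FPKM, Pde3b from 2.98 to 1.28, the kinase gene Sgk1 from 79.3 to 46.1 and Gem from 1.09 to 0.273. Gem also averaged below 1 FPKM in KO (0.783) and in KO with DA (0.693). It met the filter mainly through the untreated WT libraries, and nothing further is drawn from its call.

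In M2 the difference between the genotypes in the DA effect passed for 11 of the 23 tested CREB/ATF relatives, 6 of the 11 AP-1 partners, 12 of the 21 immediate early genes and 16 of the 19 CRE-bearing targets, beside 43.2% of all genes. Of the genes named above for their M2 WT changes, it was missed by Creb5, Atf5 and Batf3 (adjusted p 0.732, 0.00594 and 0.223), by Fosl1 and Maff (0.00228 and 0.00792), by Dusp5 (0.00125) and by Gem (0.00188).

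**Figure D5:**
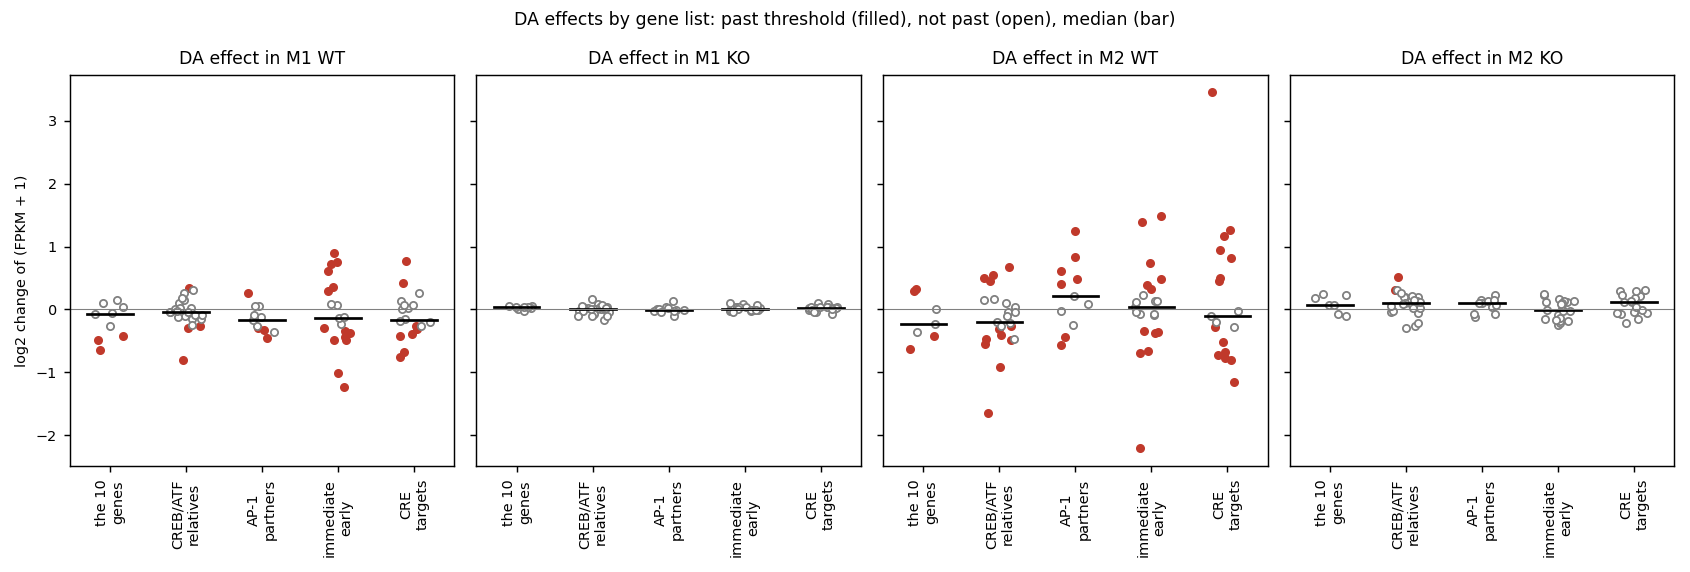
Log2 change of (FPKM + 1) with DA for the tested genes of the 10 and of the 4 pathway lists, in WT and KO of either stimulus; filled points passed the threshold, bars are medians over all tested genes, and 1 gene of the CRE target list is not drawn. In M1 KO no gene of these lists passed, and in M2 WT the drawn changes run from -2.21 for Btg2 to 3.45 for Ccnd1.

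Among the tested members, the largest DA change in WT on the log2(FPKM + 1) scale was that of Nr4a3 in M1 and Crem in M2, with Fosb, and in M2 Nr4a2 and Nr4a3, below the filter and not ranked. Across the 12 M1 libraries, the genes most like Nr4a3 by Pearson r of log2(FPKM + 1), among 10039 compared, were Cnot9 (r = 0.977), Hat1 (0.971) and Zhx2 (0.971). Cnot9 averaged 23.7 FPKM in M1 WT, 19.1 with DA, 24.9 in KO and 24.2 in KO with DA. Across the 12 M2 libraries, those most like Crem, among 10734, were Vcpip1 (r = 0.979), Ints12 (0.978) and Tlr4 (0.978), the receptor for LPS. Tlr4 averaged 38.7 FPKM in M2 WT, 24.5 with DA, 32.1 in KO and 37.7 in KO with DA, the order seen for Crem. These values describe libraries that fall into 4 groups, and no p is attached to them.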

How the data were processed

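FPKM, fragment counts scaled by transcript length and library total, were deposited, 1 file per library, with gene symbol and Entrez identifier; replicates were not pooled. According to the study's methods reads were aligned with HISAT2 to an earlier patch release of GRCm38. The submitters' processing notes name Bowtie2 2.2.5 and GRCm38.p6. Strand handling is not given in the sources used here. Loci overlapping Crem (1), Crtc3 (2) and Nr4a2 (1) in RefSeq could share reads with them. Sums were 476187 to 503799 FPKM per library. Read depth is unknown: ratios among low values fell within 0.05 of a whole number in 10.5% (M1) and 14.7% (M2) of cases, where an even spread gives 10.0%.

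Tables were joined by identifier. limma 3.58.1 (R 4.3.3), with intensity trend, was fitted to log2(FPKM + 1) of the 12 libraries per stimulus, or of all 24 for the comparison of DA effects between stimuli, for genes with at least 1 FPKM in at least 3 libraries (10040 in M1, 10735 in M2, 11148 jointly), with Benjamini-Hochberg adjustment over all of them. Thresholds (1.2-fold, adjusted p under 0.001) follow the study's. The fit was tested on simulated data. Alternatives were pseudocount, filter, 2 scalings, replicate block, groups in the fit, trend, both thresholds and each library left out. Named genes are the 10 members, up to 4 rises and 4 falls past the threshold per list and stimulus with DA in WT, 3 similar genes per stimulus and markers. Values of 1 listed gene are not reported here, though list counts and medians include it. Members and lists were chosen with earlier results of these data known. Promoters are RefSeq's, GRCm38.p6. No protein sequences were used here. Python 3.11.15, pandas 2.3.3 and matplotlib 3.10.9 were used.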

Additional observations from a re-analysis of the deposited data

Results flagged for a closer look

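For 2 of the 7 genes tested, the DA effect in M2 differed between WT and KO by the test of the difference itself (limma, all 12 M2 libraries), beside 43.2% of all genes. The WT effect minus the KO effect was -0.88 ± 0.08 for Crem (SE, log2; adjusted p = 1.51e-07), where WT libraries with DA were lower and KO libraries with DA higher than their controls in 3 of 3, and -0.32 ± 0.06 for Crtc2 (adjusted p = 0.000295; 0.00107 and 0.00108 without M2 KO replicate 3 and M2 KO with DA replicate 1, which end the call). Fibroblast and macrophage marker sums differed between these groups as well, and their part was not tested.

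Of the 7 genes that meet the filter under both stimuli, 2 had a DA effect in WT that differed between M2 and M1, beside 45.9% of all genes. The M2 effect minus the M1 effect was -0.78 ± 0.07 for Crem (adjusted p = 4.34e-10) and 0.40 ± 0.06 for Fos (adjusted p = 1.58e-06). Nr4a2 and Nr4a3 were flagged too, at 0.63 ± 0.13 (adjusted p = 0.000225) and 0.53 ± 0.13 (adjusted p = 0.000793), but both are below the filter in M2 and entered this fit through M1, so nothing is drawn from them. The Nr4a3 value was 0.11 (adjusted p = 0.792) with a pseudocount of 0.1, and its call was lost in 14 of 24 fits without 1 library; the Nr4a2 call was lost in 3.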

How the results depend on the processing

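For the 19 calls of a gene in a comparison, none of 165 values under other settings and 276 values without 1 library changed direction. Counts of the 10 genes called were less stable. With quantile normalization the count for DA in M1 WT went from 3 to 1. That count was 2 without a filter, with median-of-ratios scaling, with the replicate block, without the intensity trend and with the compared groups alone in the fit. It was 4 with a pseudocount of 0.1. The genotype difference without DA in M1 went from 1 to 0 without a filter, with the replicate block, without the intensity trend, with the compared groups alone in the fit, and at 2-fold. At an adjusted p below 0.05 the difference between the DA effects of the genotypes went from 0 to 3 in M1 and from 2 to 4 in M2, and the genotype difference without DA in M2 from 0 to 1. At 2-fold, 0 were left for DA in M1 WT (from 3) and M2 WT (from 4), the genotype difference with DA in M1 (from 3) and M2 (from 2), the difference between genotypes in M2 (from 2) and that between stimuli (from 4). Without 1 library, counts ranged from 1 to 3 for DA in M1 WT, 4 to 6 for DA in M2 WT, 0 to 1 for the genotype difference without DA in M1 and in M2, 3 to 4 for that with DA in M1, 1 to 2 for the difference between genotypes in M2 and 2 to 4 for that between stimuli, where Nr4a2 and Nr4a3 are below the filter in M2. Without a filter Fosb was added to the counts for DA in M2 WT (from 4 to 5) and genotype with DA in M2 (from 2 to 3). Causes were not tested.

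Signs changed in 17 results, all uncalled, with reversed values of at most 0.0751 in size on the log2 scale. With median-of-ratios scaling and with quantile normalization, Creb1 gave 0.009033 and 0.01089 for DA in M1 WT, -0.05101 and -0.05072 for genotype with DA in M1, -0.02196 and -0.02846 for DA in M2 WT, and -0.00539 and -0.03971 between stimuli. Crtc3 gave -0.02368 and -0.01668 for genotype with DA in M1 and 0.05668 and 0.05366 between genotypes in M1. With the first alone, Crem gave -0.000516 for DA in M1 KO; with the second alone, genotype without DA gave 0.01128 for Nr4a1 in M1 and 0.004884 for Creb1 in M2. Without 1 library, DA in M1 KO ranged from -0.01062 to 0.08829 for Creb1, -0.01139 to 0.0161 for Crem, -0.01179 to 0.02843 for Atf1, -0.07857 to 0.0201 for Crtc2, -0.01661 to 0.07103 for Nr4a1, -0.05143 to 0.1227 for Nr4a2 and -0.07509 to 0.1068 for Nr4a3. Genotype without DA in M1 ranged from -0.005456 to 0.05131 for Crtc3, -0.05577 to 0.03187 for Nr4a1 and -0.001932 to 0.04521 for Fos. Creb1 ranged from -0.05145 to 0.04746 for genotype with DA in M1 and -0.0192 to 0.03794 for DA in M2 WT, and Crtc3 from -0.04115 to 0.01562 between genotypes in M1.

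Over all genes, 33% of those called with DA in M1 WT were higher, against 56% with median-of-ratios scaling and 52.2% with quantile normalization, so the M1 balance of rises and falls depended on scaling. Replicates of the same number were not alike: residual r was -0.178 to 0.103 over 18 pairs in M1 and -0.170 to 0.179 over 18 in M2. Read depth is unknown, and low FPKM are the least precise.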

Other observations

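Transcripts of other tissues appeared among the low values of the M1 files; the genes were chosen after their values were seen. Myl2, a cardiac and slow muscle myosin light chain, was at 3, 5.01 and 5.42 FPKM in M1 WT and 4.77, 3.34 and 2.25 with DA, and was listed at 0 in all 6 M1 KO libraries. The lung genes Scgb1a1 (1.29 to 2.59 FPKM) and Sftpc (0.36 to 0.84 FPKM) were likewise present in all 6 M1 WT libraries and listed at 0 in the 6 M1 KO libraries. In M2, Myl2 was at 0 to 0.06 FPKM and Scgb1a1 at 0.12 to 0.69 in both genotypes. The genotypes of M1 were thus separated by transcripts that macrophages are not known for, beside the neutrophil markers.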
